A study of Mus musculus with 26 samples.

Results

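The carbonic anhydrase genes of mouse were followed in the proximal SI of knockout mice, in which a gene was deleted in IECs, and of control mice. The 10 genes Car1, Car2, Car3, Car4, Car5b, Car6, Car8, Car9, Car12 and Car13 were taken as members, of 55487 genes in the table. They were chosen because Car6 had the lowest p of all genes between the genotypes at 7 days, so the genotype values of day 7, and the change between the days that uses them, are a description without a test. The genotype comparison of day 3 shares no library with that choice and was tested. The members and all lists were still chosen with earlier results of these data known, so its p-values do not come from a blind choice.

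Carbonic anhydrases hydrate CO2 to bicarbonate and a proton. In the gut they supply bicarbonate and protons to the transporters of epithelial cells, and family members differ mainly in where they sit, being secreted, anchored in the membrane, cytosolic or mitochondrial. The secreted member, Car6, is known from saliva. An intracellular Car6 form that starts inside the gene and is induced by the stress factor CHOP, encoded by Ddit3, has also been described in mouse cells.

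Knockout mice were fl/fl for the targeted gene and carried Villin-creERT2, a Cre recombinase driven by the Villin promoter in IECs and activated by tamoxifen. Control mice were littermates with the floxed alleles but without the Cre, so both genotypes were floxed, and both got 5 daily tamoxifen injections at 8 to 12 weeks of age on a C57BL/6N background. Tissue was taken 3 or 7 days after the last injection, from 7 knockout and 7 control mice at 3 days and from 6 and 6 at 7 days. Each piece lay just behind the stomach and held the epithelium, the lamina propria and the muscle, so fewer cells of a type and less RNA per cell cannot be told apart.

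The libraries read the 3′ ends of transcripts and had between 3720168 and 6338016 counts each. Levels are given as CPM, counts scaled to the library total, which are not divided by transcript length and are compared within a gene only. In 4 libraries the summed markers of stomach epithelium and Brunner glands, the mucous glands of the duodenum, exceeded 1000 CPM, against at most 395 CPM in all others. These were knockout replicate 1 and control replicates 5 and 7 of day 3 and control replicate 2 of day 7. Log2 fold changes that they move by more than 1.5 times are given with and without them. They are called libraries with stomach transcripts below, but in each the Brunner gland markers were the larger part of the sum. These markers, Muc6 and Tff2, summed to 8709 to 61707 CPM, and those of stomach epithelium to 2898 to 25960 CPM. The tissue of origin was not tested. All 8 markers of small intestinal epithelium were detected in every group, with summed levels between 1152 and 12911 CPM.

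Promoter sequences of RefSeq (GRCm38.p6) were at hand for 5 of the 10 members, Car4, Car5b, Car6, Car9 and Car12. They are shown where Car6, the member by which the family was chosen, and Car9, a known target of the hypoxia-inducible factors (HIF), hold the letters ACGTG, the core that HIF binds. Each stretch of 30 bases is on the strand of its gene, 5′ to 3′, and capitals mark the match on either strand. In Car6 the matches of both strands overlap.
Car6 (chr4:150201267-150201296, minus strand): gaggaggtgaggCACGTGcacaggcaccaa
Car9 (chr4:43506996-43507025, plus strand): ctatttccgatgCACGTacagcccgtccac

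The match began 149 bases before the RefSeq start in Car6 and 18 bases before it in Car9, and both stretches lie in exon sequence of another annotation, GENCODE, in which these genes start further upstream. Of 32851 promoters, 16.6% held ACGTG in the 250 bases before the start, so its presence is common. The letters TGATGNAA of ATF4 sites (in 3.45% of promoters), TGCAAT of CHOP sites (7.32%), TATAAA (12.4%) and TTTATNG of CDX2 sites (9.81%) were found in the 250 bases of 0 of the 5 members, on either strand. The Car6 window searched lies around the start of the longer transcript. By GENCODE only its first 53 bases lie before that transcript, and the rest lies in its exon. The sequence before the internal start of the gene was not analysed here. These are matches of letters and no binding was measured.

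At 3 days, 0 of the 9 members tested passed the threshold of an adjusted p under 0.05, where 1.43% of 20760 genes did (edgeR quasi-likelihood test with Benjamini-Hochberg adjustment). The 9 genes had a median log2 fold change of -0.49, beside -0.03 for all genes tested. At an unadjusted p under 0.05, 2832 of all genes passed, and Car4 and Car13 were the members among them. The ranges of knockout and control mice overlapped for all 9 members, while they did not overlap for 0.848% of all genes tested. Car1 was not tested, since it had 1 count in all 26 libraries.

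At 7 days, 3 members were past the threshold as higher in knockout mice (Car3, Car6 and Car8) and 3 as lower (Car4, Car9 and Car12), where 19.7% of 20259 genes were higher and 18.8% lower. The count of 6 was 4 with all 26 libraries in 1 fit, where Car3 and Car8 missed the threshold, and 4 with pancreatic and stomach scores as covariates, where Car3 and Car12 did. This contrast chose the family, and nothing is read from these counts. Between the days, the difference of the genotypes moved up past the threshold for Car6 and Car8 and down for Car4 and Car9 in a fit of all 26 libraries, where 8.64% of 19604 genes moved up and 9.74% down. The groups of day 7 did not overlap for Car4, Car6 and Car9, beside 22.6% of all genes tested at that day.

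**Figure D1:**
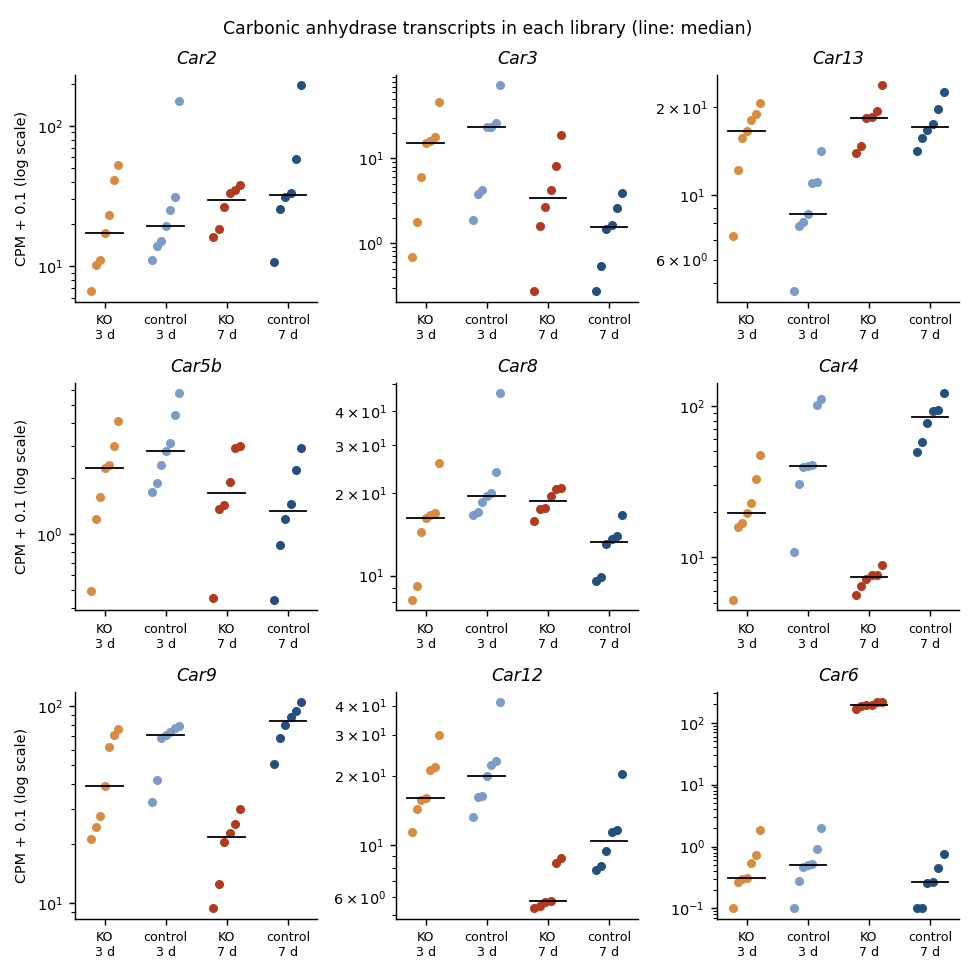
CPM + 0.1 (log scale) of 9 members in the 26 libraries, with 7 mice per genotype at 3 days and 6 at 7 days, where each point is a mouse and each line a group median. Car6 lay between 169 and 218 CPM in the 6 knockout mice of day 7 and at or below 1.88 CPM in all other mice, and Car4 and Car9 were lower in every knockout mouse of day 7 than in any control mouse of that day.

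Car6, the secreted member, was nearly absent from every group except the knockout mice of day 7. In these its level was between 169 and 218 CPM (median 193, 965 to 1366 counts per library). In control mice of day 7 it was between 0 and 0.651 CPM (median 0.164), with 0 to 3 counts per library. The lowest knockout mouse was thus far above the highest control mouse, and the knockout mice differed little among themselves (196 ± 18.3 CPM, SD, n = 6).

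With 6774 counts in the knockout mice of day 7 and 7 in the control mice, the CPM ratio of the summed counts was 930, with an exact 95% interval of 451 to 2313 that covers counting error only. The fitted log2 fold change was 9.74 (SE 0.24), which depends on the prior count because the control mice were near 0. This SE was derived from the test statistic, and with 7 counts in the control mice it understates the uncertainty. The exact interval of the counts above is wider, although it leaves out the spread between mice. Of all 20259 genes tested at 7 days, Car6 ranked 1 by p, which is the value that chose the family.

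At 3 days, Car6 was at or near 0 in both genotypes. It was between 0 and 1.76 CPM (median 0.205) in knockout mice and between 0 and 1.88 CPM (median 0.398) in control mice. The 15 counts in knockout and 17 in control mice gave a CPM ratio of 0.847 with an exact 95% interval of 0.394 to 1.80. The groups overlapped fully, and the fit gave a log2 fold change of -0.15 (SE 0.77, adjusted p = 0.962, edgeR), or of 0.72 (adjusted p = 0.729) without the 4 libraries with stomach transcripts.

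Ddit3, the gene of CHOP, was looked at after its values had been seen. At 3 days it was between 22.9 and 106 CPM (median 56.1) in knockout mice and between 12.5 and 23.3 CPM (median 16.2) in control mice. At 7 days it was between 199 and 333 CPM (median 296) in knockout mice and between 15.1 and 21.3 CPM (median 16.9) in control mice. Its log2 fold change was 1.88 (SE 0.26, adjusted p = 0.00092, edgeR) at 3 days, when Car6 did not pass the test, and 4.06 (SE 0.15) at 7 days. Whether Ddit3 acts on Car6 was not tested.

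GENCODE places Car6 on the minus strand at chr4:150187015-150201332 (GRCm38), with 2 coding transcripts that share their 3′ end. The longer starts at 150201332 with its start codon at 150201109, and the shorter, internal one starts at 150198470 with its start codon at 150198186. Reads from the 3′ end cannot tell these transcripts apart, so the form present at 7 days is not known from these data.

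Of 6963 genes whose mean count reached 100, the 5 whose log2 CPM ran most like that of Car6 over the 26 libraries were Sqstm1 (r = 0.98), the autophagy receptor p62, Dctn4 (r = 0.97), a dynactin subunit, Ascc3 (r = 0.97), a helicase, Avpi1 (r = 0.96) and Kitl (r = 0.96), the KIT ligand. These correlations are a description over libraries that share the split into groups. With the group means removed they were 0.50 for Sqstm1, 0.53 for Dctn4, 0.26 for Ascc3, 0.58 for Avpi1 and -0.05 for Kitl.

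**Figure D2:**
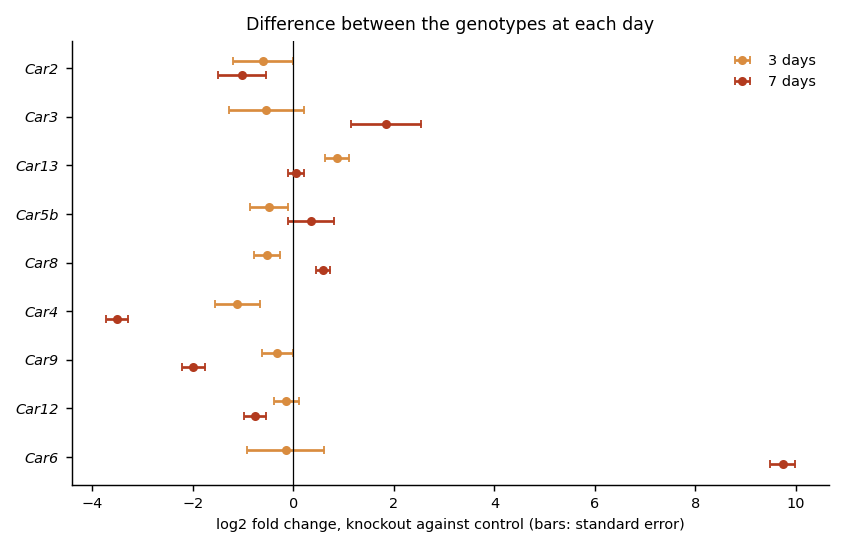
Log2 fold change of knockout against control mice with its standard error for 9 members, at 3 days (7 mice per genotype) and at 7 days (6 per genotype). At 3 days the values lay between -1.11 for Car4 and 0.87 for Car13, and at 7 days between -3.51 for Car4 and 9.74 for Car6. The bar of Car6 at 7 days understates its uncertainty, since the control mice had 7 counts in total.

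Car4, Car9 and Car12, all membrane-bound, were the members past the threshold as lower in knockout mice of day 7. The cytosolic Car2 had a log2 fold change of -1.02 (SE 0.48) at that day and did not pass. Car4, held on the brush border and on capillaries by a lipid anchor, was between 5.50 and 8.69 CPM (median 7.26) in knockout mice of day 7 and between 49.4 and 121 CPM (median 84.8) in control mice. The groups were far apart, with a fitted log2 fold change of -3.51 (SE 0.21), 11.4-fold lower in knockout mice. Markers of epithelium moved with it, since 7 of 8 were lower in knockout mice at 7 days, beside 18.8% of all genes. The summed level of the markers was between 2689 and 4080 CPM in knockout mice and between 8324 and 12911 CPM in controls. The 5 markers of blood endothelium were all higher in knockout mice at that day (137 to 211 CPM summed, against 64.8 to 98.03 CPM), beside 19.7% of all genes. The part of either tissue in the Car4 values was not tested.

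At 3 days, Car4 was between 5.11 and 47.5 CPM (median 19.4) in knockout mice and between 10.8 and 110 CPM (median 39.8) in control mice. Of the 7 knockout mice, 6 lay below the control median, yet the ranges overlapped widely. The log2 fold change was -1.11 (SE 0.44), with an unadjusted p of 0.0216 and an adjusted p of 0.259 (edgeR), and it did not pass the threshold in any of 22 alternatives. Of the epithelial markers, 0 of 8 passed the test at that day, beside 1.43% of all genes. The genes most like Car4 over the 26 libraries were Aldh1a1 (r = 0.92), a retinaldehyde dehydrogenase, Glud1 (0.91), glutamate dehydrogenase, Asah2 (0.91), a ceramidase of the brush border, Sox6 (0.91) and Plbd1 (0.91), and with group means removed the values were between 0.66 and 0.80.

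Car9, a transmembrane enzyme whose gene HIF induces in many tissues, was between 9.29 and 29.9 CPM (median 21.4) in knockout mice of day 7 and between 50.6 and 105 CPM (median 83.6) in control mice. These groups did not overlap, and the fitted log2 fold change was -1.99 (SE 0.22), 3.97-fold lower in knockout mice. At 3 days the range was 20.9 to 76.2 CPM (median 39.0) in knockout and 32.3 to 78.9 CPM (median 70.6) in control mice. The groups overlapped over most of their range and the log2 fold change of -0.32 (SE 0.31, adjusted p = 0.723, edgeR) did not pass the test. Exons of Car9 (chr4:43506966-43513729, plus strand) overlap those of Gm12454 on the opposite strand, and some Car9 counts are fractions shared between the genes. Most like Car9 over the 26 libraries were Ces2g (r = 0.92), a carboxylesterase, the tight junction genes Tjp3 (0.91) and Cldn15 (0.90), Mgst1 (0.90) and Lgals2 (0.90), and with group means removed the values were between 0.72 and 0.79.

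Other known targets of HIF were taken as a list that does not hold Car9. At 3 days, 3 of 14 tested were higher in knockout mice, beside 1.11% of all genes tested, and 0 lower, and the 3 were Vegfa, which drives vessel growth (log2 fold change 0.73, SE 0.16, adjusted p = 0.0229, edgeR), Slc2a1, a glucose transporter (0.75, SE 0.18, adjusted p = 0.0413), and Ndrg1 (0.78, SE 0.18, adjusted p = 0.0365). At 7 days, 7 of 14 were higher and 3 lower, beside 19.7% and 18.8% of all genes, with a median log2 fold change of 0.64 beside -0.02 for all genes. Slc2a1 had the highest value (2.36, SE 0.18) and Egln3, an oxygen sensor of the pathway, the lowest (-1.32, SE 0.18). At -1.99, Car9 lay below the lowest of these 14 genes at 7 days.

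Car12, a transmembrane enzyme of secretory epithelia, was between 5.26 and 8.69 CPM (median 5.64) in knockout mice of day 7 and between 7.70 and 20.2 CPM (median 10.4) in control mice. The ranges touched, with the highest knockout mice above the lowest control mice, and the log2 fold change was -0.77 (SE 0.22). It was -0.44 and no longer past the threshold with scores of pancreatic and stomach transcripts as covariates. At 3 days Car12 was between 11.3 and 29.9 CPM (median 15.9) in knockout and between 13.1 and 41.4 CPM (median 19.9) in control mice, with a log2 fold change of -0.14 (SE 0.24, adjusted p = 0.869, edgeR) and of -0.041 without the 4 libraries.

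The cytosolic members followed no common direction. Car13 was the only member above 0 at 3 days, with 7.15 to 20.6 CPM (median 16.4) in knockout mice and 4.57 to 14.0 CPM (median 8.52) in control mice. Of the knockout mice, 5 of 7 lay above the highest control mouse. The log2 fold change was 0.87 (SE 0.25), or 1.83-fold, with an unadjusted p of 0.00269 and an adjusted p of 0.102 (edgeR), so it missed the threshold. It passed with DESeq2 (adjusted p = 0.0222), with all 26 libraries in 1 fit (0.0215, edgeR), without the 4 libraries with stomach transcripts (0.0331, edgeR) and without knockout replicate 1 of day 3, itself among these 4 (adjusted p = 0.0133, edgeR). Over all alternatives its adjusted p ranged from 0.0133 to 0.218.

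At 7 days, Car13 was between 13.8 and 23.8 CPM (median 18.3) in knockout and between 14.0 and 22.4 CPM (median 17.0) in control mice. The groups lay on top of each other (log2 fold change 0.05, SE 0.16, 95% interval -0.26 to 0.36, and 0.024 without control replicate 2). The genes most like Car13 over the 26 libraries were Slc16a6 (r = 0.94), Ifit1bl2 (0.94), Reep6 (0.94), Cyp4b1 (0.93) and Slc16a5 (0.93). Slc16a6 and Slc16a5 are monocarboxylate transporter genes and Cyp4b1 is a cytochrome P450. With the group means removed, the values were between 0.85 and 0.90.

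Car2, the abundant cytosolic enzyme of gastric parietal cells and other acid- or base-secreting cells, had its highest levels in single libraries. At 3 days it was between 6.55 and 52.9 CPM (median 17.3) in knockout and between 11.02 and 149 CPM (median 19.3) in control mice. At 7 days it was between 16.2 and 37.9 CPM (median 29.8) in knockout and between 10.6 and 196 CPM (median 32.1) in control mice. The highest control mouse of each day, at 149 and 196 CPM, was replicate 5 of day 3 and replicate 2 of day 7, which had 87666 and 39625 CPM of stomach and Brunner gland markers, while the next highest control mice had 31.0 and 58.4 CPM of Car2. Atp4a, the proton pump subunit of parietal cells, had group means between 0.637 and 1.26 CPM, and Atp4b was at 0 in every group.

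The log2 fold change of Car2 was -0.60 (SE 0.60, adjusted p = 0.729, edgeR) at 3 days and 0.34 (adjusted p = 0.758) without the 4 libraries. At 7 days it was -1.02 (SE 0.48), and it was -0.18 without control replicate 2 of day 7 and -1.23, then past the threshold, without control replicate 3. The genes most like Car2 over all libraries were Foxq1 (r = 0.88), Gjb1 (0.86), Eif4a3 (0.85), Scarb1 (0.85) and Serinc2 (0.84).

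**Figure D3:**
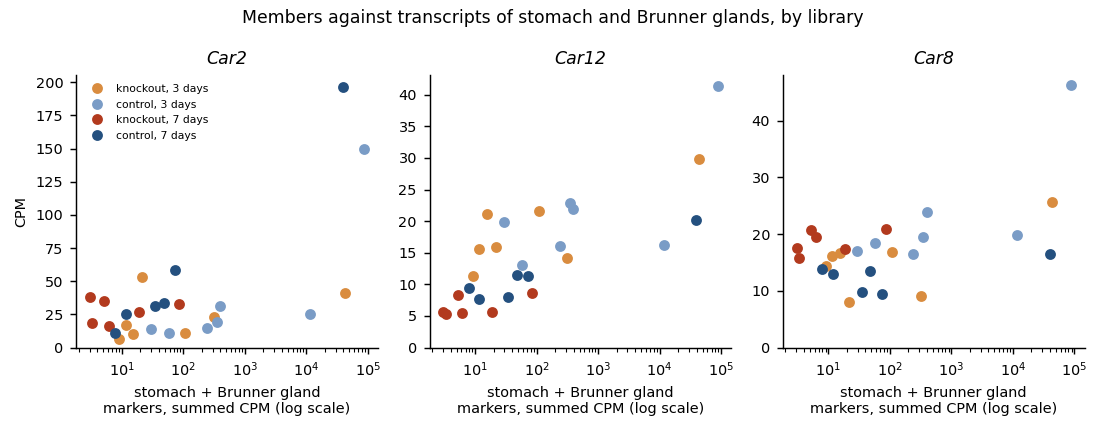
CPM of Car2, Car12 and Car8 against the summed CPM of stomach and Brunner gland markers (log scale) in the 26 libraries, 1 point per mouse. Control replicate 5 of day 3, the point farthest to the right at 87666 CPM, had 149 CPM of Car2, 41.4 CPM of Car12 and 46.2 CPM of Car8.

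Car3, a cytosolic enzyme of adipocytes and skeletal muscle, varied widely between mice. At 3 days it was between 0.590 and 45.6 CPM (median 14.9) in knockout and between 1.79 and 73.3 CPM (median 23.1) in control mice. The ranges overlapped almost wholly (log2 fold change -0.54, SE 0.74, adjusted p = 0.819, edgeR). The value was -1.09 without the 4 libraries (adjusted p = 0.533) and -1.13 without knockout replicate 1 alone, while it turned to 0.15 without control replicate 4. At 7 days it was between 0.175 and 18.9 CPM (median 3.34) in knockout and between 0.171 and 3.79 CPM (median 1.45) in control mice, and 3 of 6 knockout mice lay above the highest control mouse. The log2 fold change was 1.84 (SE 0.70), and 13 of 20 alternatives put it on the other side of the threshold, where it was 0.98 without knockout replicate 2, the lowest of these, and leaving out knockout replicate 3 or 6 or any 1 of control replicates 1 to 5 also lost it, with values between 1.61 and 1.93.

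Car3 rose and fell with Adipoq, which encodes the adipocyte hormone adiponectin, at 3 days. This relation was not among the planned comparisons, and Adipoq is 1 of 6 adipocyte markers listed, so its p-values are a description. The permutations pooled both genotypes of a day. On log2(CPM + 1), Pearson's r was 0.86 at 3 days (n = 14, permutation p = 4.0e-05, 8.0e-05 adjusted over the 2 days) and Spearman's rho was 0.86 (permutation p = 6.0e-05, adjusted 0.00012), and r was 0.78 without the 2 libraries farthest from the median of Adipoq. Within a genotype of that day, r was 0.81 in knockout and 0.91 in control mice. At 7 days r was 0.69 (n = 12, permutation p = 0.0217, adjusted 0.0217) and rho 0.57 (permutation p = 0.0599, adjusted 0.0599), and r fell to 0.30 without 2 libraries, so the relation of day 7 rests on them. The libraries of day 7 are also those that chose the family. Adipoq was between 0 and 10.5 CPM in all libraries. Of the 3 adipocyte markers tested at 7 days, 2 were higher in knockout mice, Cfd and Cidec, and 0 lower. Of all genes, 19.7% were higher and 18.8% lower. Adipoq did not pass (log2 fold change 0.80, SE 0.94). Cfd had 112 of its 155 knockout counts in knockout replicate 2, and its medians were 1.35 CPM in knockout and 0.458 CPM in control mice. The list summed to 92.9 to 143 CPM in knockout mice, against 24.2 to 52.8 CPM in control mice, mostly from Cidec, a lipid droplet gene. Skeletal muscle markers summed to 89.2 to 123 CPM in knockout and 8.14 to 11.4 CPM in control mice of day 7, mostly from Acta1. Of the 4 tested at that day, Acta1 was higher and Mylpf lower (log2 fold change -1.18, SE 0.31), beside the same shares of all genes. Ckm and Tnnt3 did not pass the test, and Myh4 and Myh1 were at 0. The part of adipose or muscle tissue in the Car3 values was not tested.

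**Figure D4:**
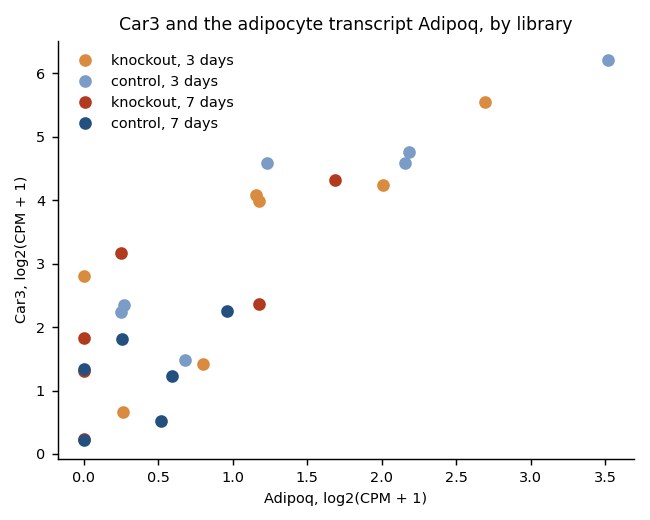
Car3 against Adipoq, both as log2(CPM + 1), in the 26 libraries with 1 point per mouse coloured by genotype and day. Libraries with more Adipoq had more Car3 at 3 days (r = 0.86, n = 14), while at 7 days most libraries lay near 0 for Adipoq.

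Car5b, the mitochondrial member, was low throughout, between 0.342 and 5.64 CPM over all groups. Its group medians were 2.18 CPM in knockout and 2.70 CPM in control mice of day 3 and 1.56 and 1.23 CPM in those of day 7. The groups overlapped at both days, with a log2 fold change of -0.49 (SE 0.38, adjusted p = 0.640, edgeR) at 3 days and of 0.35 (SE 0.46) at 7 days, or 0.61 without control replicate 2 of that day. The values rest on 2 to 23 counts per library, and the 95% interval at 3 days ran from -1.24 to 0.27.

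Car8 keeps the fold of the family but lacks its catalytic activity. It was between 8.06 and 25.6 CPM (median 16.2) in knockout and between 16.6 and 46.2 CPM (median 19.5) in control mice of day 3. The log2 fold change was -0.52 (SE 0.26, adjusted p = 0.399, edgeR), -0.38 without the 4 libraries, -0.24 without control replicate 5 alone and -0.23 with pancreatic and stomach scores as covariates. At 7 days Car8 had 15.8 to 20.8 CPM (median 18.6) in knockout and 9.48 to 16.5 CPM (median 13.2) in control mice, where 1 control mouse lay within the knockout range. The log2 fold change was 0.59 (SE 0.14), which was 0.60 but no longer past the threshold with all 26 libraries in 1 fit, and the change from 3 to 7 days was 1.12 (SE 0.33).

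Car1, the enzyme of red blood cells and colon, had 1 count, in a control mouse of day 7, and 0 in the other libraries. The red cell markers Hbb-bs, Hbb-bt and Alas2 were detected in each group, with a summed marker level between 115 and 824 CPM over all libraries. Car13, Car1, Car3 and Car2 lie in this order on chromosome 3 within 259 kb, and among these neighbours the values of day 7 ranged from a log2 fold change of -1.02 for Car2 to 1.84 for Car3.

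Control mice were compared between 7 and 3 days to see whether the members' levels differed with the day alone. This comparison uses the control libraries of day 7, which also took part in choosing the family, and the day and any batch that coincided with it cannot be told apart. Car4, Car9 and Car13 were higher and Car3 was lower at 7 days by the edgeR test, where 19.7% of 20646 genes were higher and 16.3% lower. Car13 had a log2 fold change of 1.29 (SE 0.20, adjusted p = 0.00013, edgeR), or 2.45-fold, and the lowest mouse of day 7 was just above the highest of day 3 (14.05 and 14.01 CPM), as the control groups of the days did not overlap for 19% of genes. Car9 rose by 0.71 (SE 0.19, adjusted p = 0.0080, edgeR), which was lost with all 26 libraries in 1 fit (adjusted p = 0.0775). Car4 rose by 1.01 (SE 0.38, adjusted p = 0.0460, edgeR), a call that was lost in 13 of 20 alternatives, among them DESeq2 (adjusted p = 0.0701), leaving out the 4 libraries with stomach transcripts (0.0646, edgeR), and leaving out any 1 of control replicates 1, 2, 3, 5 and 7 of day 3 and 3, 4, 5 and 6 of day 7, with values between 0.77 and 1.05.

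Car3 fell by 3.36 (SE 0.79, adjusted p = 0.0032, edgeR), 10.2-fold lower at 7 days, and kept its call in all 20 alternatives. Of the 3 adipocyte markers tested, Adipoq and Cfd were lower at 7 days as well, and Cidec was higher (2.36, adjusted p = 0.00026, edgeR). Car2 differed by 0.94 (SE 0.67, adjusted p = 0.298, edgeR) and by 1.17 (adjusted p = 0.0150) without the 4 libraries with stomach transcripts, and by 1.90 (adjusted p = 0.0079) without control replicate 5 of day 3 alone, but by 0.073 (adjusted p = 0.941) without control replicate 2 of day 7 alone. Car12 differed by -0.59 (SE 0.27, adjusted p = 0.104, edgeR), by -0.60 (adjusted p = 0.0171) without the 4 libraries and by -0.81 (adjusted p = 0.0252) without control replicate 2 of day 7 alone. Car8 differed by -0.51 (SE 0.25, adjusted p = 0.120, edgeR) and by -0.31 without the 4 libraries, although its control groups also did not overlap, by a narrow margin (lowest 16.55 CPM at 3 days, highest 16.50 CPM at 7 days). Car5b differed by -0.76 (SE 0.42, adjusted p = 0.168, edgeR). Car6 had 17 counts at 3 days and 7 at 7 days. The markers moved with the day too, where 8 of 8 of epithelium were higher and 6 of 6 of smooth muscle and 5 of 5 of blood endothelium lower at 7 days. Of all genes, 19.7% were higher and 16.3% lower in this comparison. The part of these markers in the values of the members was not tested.

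Other genes of acid and base handling were taken as lists. Of 6 further family genes, Car7, Car11, Car14 and Car15 were tested at both days, and 0 passed at 3 days, where 1.43% of all genes did. At 7 days, Car11, which lacks catalytic activity (log2 fold change -1.32, SE 0.41), and Car14, a membrane enzyme (-0.52, SE 0.15), were lower in knockout mice. Of the bicarbonate transporters, 0 of 15 passed at 3 days, beside the same 1.43% of all genes. At 7 days 2 of 13 were higher and 6 lower, beside 19.7% and 18.8% of all genes, with a median log2 fold change of -0.26. The lower ones included Slc26a3, the chloride-bicarbonate exchanger of the brush border (-0.91, SE 0.12), and Slc4a4, the sodium-bicarbonate cotransporter of the basolateral side (-1.35, SE 0.18). Slc26a4, the exchanger pendrin, had the highest value (4.46, SE 0.48) and Slc4a5 the lowest (-2.40, SE 0.13).

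Of the proton transporters, 0 of 15 passed at 3 days, again beside 1.43% of all genes. At 7 days 3 of 14 were higher and 6 lower, beside 19.7% and 18.8% of all genes, with a median of -0.34. Slc9a3, the sodium-proton exchanger of the brush border, was lower (-2.33, SE 0.19), as was the proton-coupled peptide transporter Slc15a1 (-3.01, SE 0.28). These transporter genes were picked from their lists after their values had been seen. In control mice, 6 of 14 bicarbonate transporters were higher and 0 lower at 7 than at 3 days. In the same comparison, 6 of 14 proton transporters were higher, among them Slc9a3 and Slc15a1, and 1 was lower. Of all genes, 19.7% were higher and 16.3% lower.

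**Figure D5:**
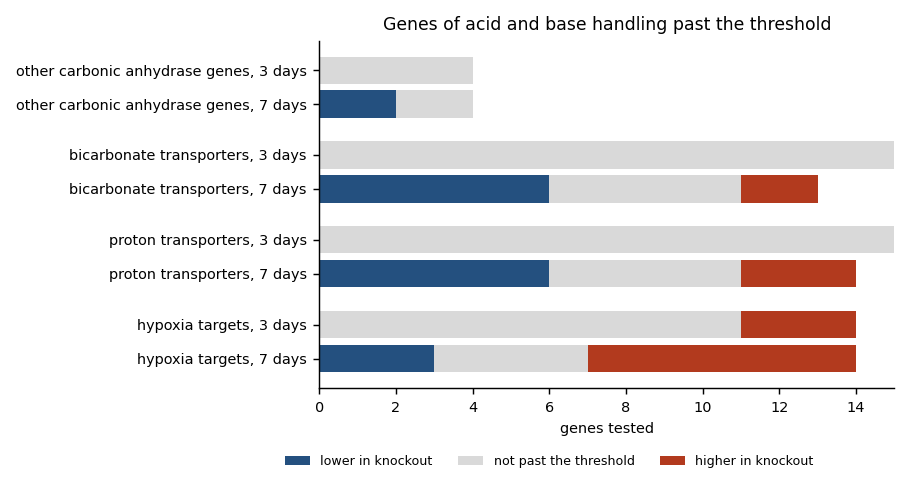
Number of genes tested in each of 4 lists that were lower in knockout mice, higher, or not past an adjusted p of 0.05 (edgeR), at 3 and 7 days. At 3 days only 3 genes, all of the hypoxia targets, passed, and at 7 days genes passed in every list. Of all genes tested, 1.43% passed at 3 days, and 19.7% were higher and 18.8% lower at 7 days.

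Members also ran with or against each other within groups. Over the 26 libraries with group means removed, Car2 and Car4 had the lowest r of all pairs (-0.77), Car2 and Car12 the highest (0.73) and Car8 and Car12 the next (0.69). Of the libraries with stomach transcripts, control replicate 5 of day 3 had the highest Car2, Car8 and Car12 of its group and, at 10.8 CPM, its lowest Car4.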

How the data were processed

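Libraries of the proximal SI were made by 3′ QuantSeq from 26 mice, 1 library each, and grouped by the labels. The deposited values are estimated counts per gene that the authors obtained by trimming with Cutadapt 2.10, aligning to GRCm38 with subread-align and counting primary alignments on exons with featureCounts 2.0.1, splitting reads that overlap several genes in fractions, with no strand option stated. Of the values, 95% were whole, and the rest were rounded to whole numbers before fitting, as the tests had been written for counts. A deposited CPM table was not used, and the 92 spike-in entries held 0 counts.

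The genotypes were compared within each day by the quasi-likelihood test of edgeR 4.0.16 in R 4.3.3 (TMM, Benjamini-Hochberg adjusted p under 0.05 over all genes tested), after leaving out genes at 0 in the majority of mice of a genotype. The change between days is the genotype by day interaction in 1 model of the 26 libraries. Positions and exons come from GENCODE (GRCm38) and promoters from RefSeq (GRCm38.p6). The script was tested on simulated data. P-values measure the spread between these mice, and intervals of counts cover counting error only. Standard errors of the edgeR fits were derived from the log2 fold change and the F statistic of its test, and that of Car6 at 7 days is too small. Alternatives were DESeq2 1.42.0, its size factors in edgeR, other filters, all libraries in 1 fit, the replicate number as a block, covariates for pancreatic and stomach transcripts, each mouse left out, and, added after the data had been seen, leaving out 4 libraries with stomach transcripts. All 10 members and, for Car6 and members described at length, the 5 genes most like them in log2 CPM (prior count 2) were named by rule. The targeted gene is not reported here. The members and all lists were chosen with earlier results of these data known.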

Additional observations from a re-analysis of the deposited data

Results flagged for a closer look

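In 9 of 35 groups of 6 or 7 mice, 1 mouse lay far from the others in the level of a member. The limit for this gap is passed in about 1 of 20 groups only if values are normally distributed and groups independent. Here the members share libraries and CPM need not be normal, so the count is a description and is not set against chance. Car2 was at 149 CPM in control replicate 5 of day 3 (next 31.0 CPM) and at 196 CPM in control replicate 2 of day 7 (next 58.4 CPM). In the same mice Car12 was at 41.4 CPM (next 22.9 CPM) and at 20.2 CPM (next 11.5 CPM), and Car8 was at 46.2 CPM in control replicate 5 of day 3 (next 23.8 CPM). Both libraries are among the 4 with stomach transcripts. Also at 3 days, Car3 reached 45.6 CPM in knockout replicate 1 (next 17.8 CPM) and 73.3 CPM in control replicate 4 (next 26.2 CPM). Car6 reached 1.76 CPM in knockout replicate 5 (next 0.631 CPM) and 1.88 CPM in control replicate 5 (next 0.796 CPM), each from 7 counts.

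The difference between the genotypes changed from 3 to 7 days past the threshold of the interaction term for 4 members. The change was -2.39 for Car4 (SE 0.55), 9.88 for Car6 (SE 0.97), 1.12 for Car8 (SE 0.33) and -1.65 for Car9 (SE 0.42) on the log2 scale. It uses the contrast that chose the family and is given as a description.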

How the results depend on the processing

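Of 852 values of single members under alternatives, 788 kept their direction and their side of the threshold, 29 lost the threshold, 18 passed it and 17 turned direction, and Car6 at 7 days lay between 9.46 and 10.38 under all of them. The number of members past the threshold at 3 days was 0, and 1, Car13, with DESeq2, with all 26 libraries in 1 fit and without the 4 libraries with stomach transcripts, and between 0 and 1 with each mouse left out. At 3 days the log2 fold change turned to 0.56 for Car2, 0.27 for Car6 and 0.18 for Car12 with pancreatic and stomach scores as covariates, and to 0.34 for Car2 and 0.72 for Car6 without the 4 libraries. At 7 days it turned to 0.19 for Car2 and -0.058 for Car13 with these covariates. With each mouse left out, the values at 3 days ranged from -0.98 to 0.41 for Car2, from -1.13 to 0.15 for Car3, from -0.89 to 0.47 for Car6 and from -0.26 to 0.12 for Car12, at 7 days from -0.078 to 0.16 for Car13, and the change between days from -1.42 to 0.43 for Car2. None of these turned values passed the threshold, and the cause was not tested.

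Of all genes at 3 days, 297 passed, and 769 with DESeq2, 810 with all 26 libraries in 1 fit, 486 without the 4 libraries and between 171 and 779 with each mouse left out. Knockout and control mice share replicate numbers, and same-numbered mice deviated together only in part (r from -0.39 to 0.49 at 3 days and from -0.30 to 0.49 at 7 days). Of the mice, 2 of 7 and 2 of 6 correlated best with their own number. These values do not settle whether the numbers mark pairs. With the replicate number as a block, 99 genes passed at 3 days and the members past the threshold were 0 at 3 days, 5 at 7 days in place of 6, and 4 for the change between days. Counts of 0 to 7 in a library limit Car6 outside the knockout mice of day 7, and counts of 2 to 23 limit Car5b.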
